A study of Mus musculus with 5 samples.

Results

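The 33 genes described here make, sense, move and export cholesterol. They were listed by name and ordered by step from the 55421 genes of the count table. The list holds 18 enzymes of sterol synthesis and 15 genes of regulation, transport, storage, efflux and turnover. All 33 were found in the table, and all 33 passed the filter on low counts that kept 20388 genes. The RNA came from whole cerebella of mice at postnatal day 14. Yy1 cKO mice carried Pcp2 Cre/+ with both copies of Yy1 floxed (Yy1 fx/fx) and gave 3 libraries. Their littermate controls carried the same Pcp2 Cre/+ with 1 floxed copy (Yy1 fx/+) and gave 2 libraries, so Cre and a floxed allele were present in both groups. The Pcp2 promoter is active in Purkinje cells, whose axons alone leave the cerebellar cortex, while the RNA came from all cells of the organ. The labels call the sex mixed and do not say whether the libraries of a group came from separate animals. Counts of sex-linked genes, given below, differ between controls 1 and 2, and between Yy1 cKO 3 and Yy1 cKO 1 and 2. Those libraries therefore came from different animals. For Yy1 cKO 1 against Yy1 cKO 2 this is not known, so part of the spread behind each p-value may be technical.

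Cholesterol is built from acetyl-CoA by a chain of enzymes that leads through mevalonate, squalene and lanosterol. The brain makes its own, because plasma lipoproteins hardly cross its barrier, and during the weeks after birth much of it goes into myelin and growing membranes. When sterols in the endoplasmic reticulum fall, SCAP escorts SREBP factors to the Golgi apparatus, where they are cut and then switch on the synthesis genes, and INSIG proteins hold this escort back when sterols are plentiful. LXR receptors sense oxysterols and switch on the export genes Abca1 and Abcg1 as well as Mylip and Srebf1.

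Promoters of 27 of the 33 genes were found among RefSeq windows on GRCm38.p6 that run from 250 bases before to 50 bases after a transcript start. Fdps, Fdft1, Sqle, Stard4, Npc1 and Abcg1 had no entry. Each window is printed 5′ to 3′ on the strand of its gene, with capitals for matches on either strand to the sterol regulatory element TCACNCCAC, the CCAAT box CCAAT, the GC box GGGCGG or the YY1 core AAGATGGC. SREBP binds the first of these motifs, the factors NF-Y and SP1 bind the CCAAT and GC boxes, and YY1 binds the last. Hmgcs1 is shown as the gene with a match to the sterol regulatory element, Acat2, Mvk and Mvd as the mevalonate enzymes that fell, and Insig2 as a gene with a match to the YY1 core.
Hmgcs1 (chr13:119690101-119690400, plus strand): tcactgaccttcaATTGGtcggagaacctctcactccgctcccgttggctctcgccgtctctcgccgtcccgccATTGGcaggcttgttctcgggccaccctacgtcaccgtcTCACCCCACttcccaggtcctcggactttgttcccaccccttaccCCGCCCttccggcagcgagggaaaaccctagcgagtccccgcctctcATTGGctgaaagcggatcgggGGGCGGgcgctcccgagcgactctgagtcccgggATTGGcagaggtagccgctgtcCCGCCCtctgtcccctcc
Acat2 (chr17:12960676-12960975, minus strand): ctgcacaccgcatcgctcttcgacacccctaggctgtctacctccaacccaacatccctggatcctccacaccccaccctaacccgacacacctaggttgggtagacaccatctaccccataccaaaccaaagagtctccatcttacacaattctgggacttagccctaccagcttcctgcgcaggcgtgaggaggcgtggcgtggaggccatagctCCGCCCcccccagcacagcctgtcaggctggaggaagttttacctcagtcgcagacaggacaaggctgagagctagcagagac
Mvk (chr5:114444019-114444318, plus strand): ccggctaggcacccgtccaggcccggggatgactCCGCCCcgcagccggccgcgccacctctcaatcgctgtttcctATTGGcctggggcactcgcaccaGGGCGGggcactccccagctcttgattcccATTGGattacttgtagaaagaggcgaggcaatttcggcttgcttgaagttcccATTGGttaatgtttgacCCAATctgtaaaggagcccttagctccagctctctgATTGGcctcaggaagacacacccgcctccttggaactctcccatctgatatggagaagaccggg
Mvd (chr8:122443373-122443672, minus strand): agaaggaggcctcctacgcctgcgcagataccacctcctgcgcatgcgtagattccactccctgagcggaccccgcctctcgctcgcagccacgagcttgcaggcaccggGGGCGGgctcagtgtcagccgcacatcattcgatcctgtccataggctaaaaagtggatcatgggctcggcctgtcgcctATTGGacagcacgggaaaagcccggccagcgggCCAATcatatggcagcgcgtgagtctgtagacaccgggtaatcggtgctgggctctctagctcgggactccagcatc
Insig2 (chr1:121327629-121327928, minus strand): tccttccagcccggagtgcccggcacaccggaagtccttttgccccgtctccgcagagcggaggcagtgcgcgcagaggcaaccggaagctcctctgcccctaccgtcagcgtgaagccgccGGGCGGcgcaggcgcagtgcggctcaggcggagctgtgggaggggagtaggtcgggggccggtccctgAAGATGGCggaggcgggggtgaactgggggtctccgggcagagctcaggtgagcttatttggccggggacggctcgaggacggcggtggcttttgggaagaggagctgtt

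In the Hmgcs1 window the sterol regulatory element lay at -137 to -129 from the start and read TCACCCCAC, between 2 of its 4 CCAAT boxes on one side and 3 GC boxes and the other 2 CCAAT boxes on the other. None of the other 26 members with a window held this motif, which occurred in 1.19% of the 21263 windows of protein-coding genes. The window of Acat2 held 1 GC box and no CCAAT box, that of Mvk 2 GC boxes and 5 CCAAT boxes, and that of Mvd 1 GC box and 2 CCAAT boxes. Of the 18 windows of enzymes, which belong to 15 genes, 14 held a CCAAT box, 15 a GC box and 13 both, against 38.2%, 46.2% and 16.9% of protein-coding windows. Of the 18 windows of the other members 9 held a CCAAT box, 13 a GC box and 7 both. The YY1 core occurred in 1 of the 3 windows of Insig2, at -60 to -53, and in the window of Npc2, at -193 to -186, against 3.05% of protein-coding windows. No window of an enzyme held it, and none of the members' 36 windows held the LXR direct repeat, AGGTCA given again after NNNN. That repeat was found in 0.0152% of all 32851 windows and in 0.0% of protein-coding windows, so its absence cannot set the members apart. These are matches of letters within 300 bases and do not show binding.

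**Figure D1:**
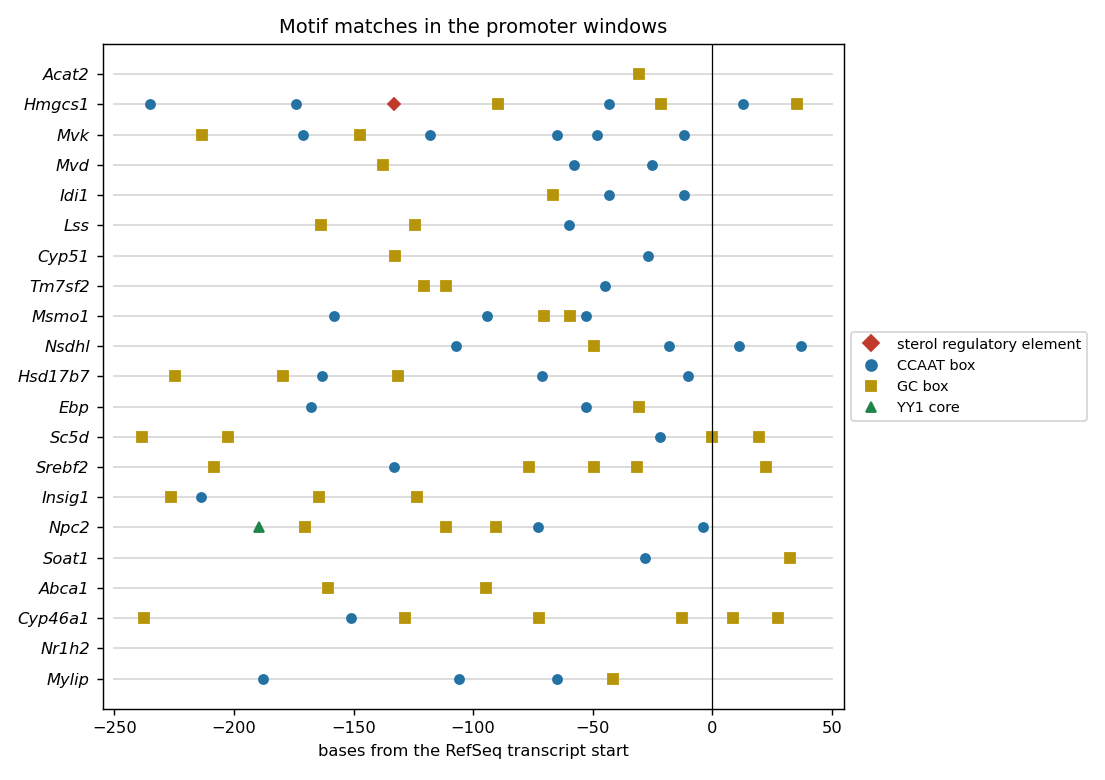
Positions of motif matches in the promoter windows of the 21 members with 1 RefSeq window, with the distance in bases from the transcript start on the horizontal axis and each symbol marking the centre of a match on either strand. The sterol regulatory element appears once, in Hmgcs1, while CCAAT and GC boxes recur along most enzymes.

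Depth was similar in all libraries, with 17424860 to 20305705 counts. Levels are counts scaled to a common library size by TMM, a method that sets libraries to a shared scale from genes of middling change, and are written CPM. Yy1 itself had 1459, 1492 and 1411 counts in Yy1 cKO 1, 2 and 3, against 1388 and 1322 in controls 1 and 2, and was not called (log2 fold change 0.05 ± 0.065, adjusted p = 0.61, edgeR). Whole-tissue RNA checks the labels little, since Pcp2 drives Cre in Purkinje cells. Markers of granule neurons such as Gabra6 (599, 631 and 638 CPM in the Yy1 cKO libraries and 433 and 489.8 CPM in the controls) and of Purkinje cells such as Calb1 (632, 623 and 734 CPM in the Yy1 cKO libraries and 611 and 730.0 CPM in the controls) were abundant. Yy1 cKO 3 stood apart on the second principal component, with 18.5% of the variance. Control 1 and Yy1 cKO 3 held counts of the Y-linked gene Ddx3y (1471 in Yy1 cKO 3 and 1175 in control 1), and the other libraries had 0. Xist, expressed from the inactive X chromosome, had 6 counts in Yy1 cKO 3 and 12 in control 1. It had 34304, 29862 and 44119 counts in Yy1 cKO 1, Yy1 cKO 2 and control 2. Values without Yy1 cKO 3 are given where it stood apart for a gene or moved a call or a count.

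All 18 synthesis enzymes had lower mean levels in Yy1 cKO than in control cerebella, and 7 of them passed the test. Of the 18 enzymes 7 fell and 0 rose at an adjusted p under 0.05 (edgeR quasi-likelihood test, Benjamini-Hochberg adjustment over all genes tested), with a median log2 fold change of -0.56, against a median of -0.0008 over all genes. Across all genes 12.6% fell and 10.7% rose, 23.4% in all. Every one of the 18 enzymes had a negative log2 fold change, from -0.97 in Sqle to -0.08 in Ebp, against 50.1% of all genes. Unadjusted, 12 enzymes fell and 0 rose at p under 0.05, and DESeq2, limma-voom and limma-trend called 11, 11 and 10 lower and 0 higher, where they called 5.74%, 12.4% and 9.24% of all genes lower. The Yy1 cKO values lay wholly below the control values in 15 of the 18 enzymes, a pattern found in 27.0% of all genes, where 52.2% did not overlap in either direction. Without control 1 or control 2 the enzymes called lower were 3 and 4, and the share of all genes called lower was 5.98% and 6.12%. Of the other 15 members 3 rose and 1 fell, with a median of 0.21. Without Yy1 cKO 3 these counts were 5 and 3, with a median of 0.12, and without control 2 both were 0, where DESeq2 and limma-voom with all libraries called 2 and 3 higher. Scaling by library size alone gave 14 of the 33 members lower and 2 higher, where 16.5% of all genes were lower and 7.02% higher. Fewer cells of a type and less RNA per cell cannot be told apart in whole tissue.

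**Figure D2:**
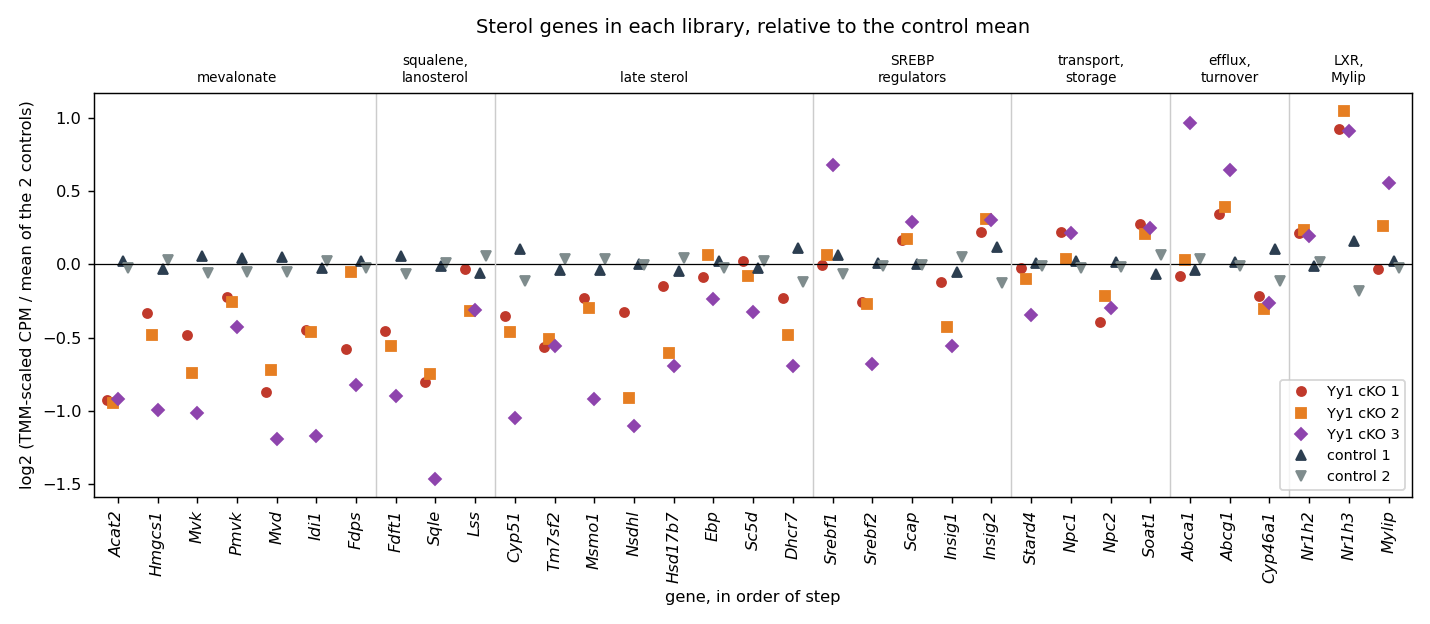
Level of each member in each library as the log2 ratio of TMM-scaled CPM to the mean of the 2 controls, with genes in order of step and 1 symbol per library. Synthesis enzymes lie mostly below 0 in the 3 Yy1 cKO libraries and lowest in Yy1 cKO 3, whereas Srebf1, Abca1, Abcg1 and Mylip lie highest in that library.

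Of the 7 mevalonate enzymes 3 fell, Acat2, Mvd and Mvk, and the groups did not overlap in any of the 7. Across all genes 27.0% lay wholly below the controls, and 52.2% did not overlap in either direction. Acat2, the cytosolic thiolase that joins acetyl-CoA units at the first step (chromosome 17, 12942890 to 12960747, GRCm38), had 30.3, 30.0 and 30.6 CPM in Yy1 cKO 1, 2 and 3, against 58.7 and 56.7 CPM in controls 1 and 2. The 3 Yy1 cKO libraries were nearly equal and stood at 52.5% of the control mean, with no overlap. The log2 ratio of Yy1 cKO over control was -0.93 ± 0.066 (SE, adjusted p = 1.8e-05), the smallest p among the members, and it was called in all 16 alternative analyses. Mvd, the decarboxylase that turns out isopentenyl diphosphate (chromosome 8, 122433601 to 122443422), had 16.9, 18.8 and 13.5 CPM in Yy1 cKO 1, 2 and 3, against 32.1 and 29.8 CPM in controls 1 and 2. It too stood well below the controls, at 53.0% of the control mean, fell by 0.91 ± 0.132 on the log2 scale (SE, adjusted p = 0.001) and was called in all 16 alternatives. Mvk, mevalonate kinase (chromosome 5, 114444269 to 114460591), had 17.4, 14.6 and 12.03 CPM in Yy1 cKO 1, 2 and 3, against 25.3 and 23.4 CPM in controls 1 and 2. All 3 Yy1 cKO values lay below both controls and the log2 fold change was -0.73 ± 0.144 (adjusted p = 0.006), a call lost without control 1 (adjusted p = 0.072).

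Among the other mevalonate genes the CPM of the groups also did not overlap, by little in Fdps, but none passed the test. Hmgcs1, HMG-CoA synthase and per kilobase of exon the most abundant of the 18 enzymes (43.6 in Yy1 cKO and 64.9 in control libraries, CPM per kb), had 237, 213 and 150.0 CPM in Yy1 cKO 1, 2 and 3, against 292 and 304 CPM in controls 1 and 2. Yy1 cKO 3 was far below the other Yy1 cKO libraries, and the log2 fold change was -0.57 ± 0.212 (adjusted p = 0.14). Without Yy1 cKO 3 the change was smaller, with a smaller SE, at -0.40 ± 0.054 (adjusted p = 2.8e-05). Hmgcs1 did not pass with any other library left out (adjusted p = 0.059 to 0.35). Idi1, which interconverts the isoprenoid building blocks, had 52.9, 52.5 and 32.0 CPM in Yy1 cKO 1, 2 and 3, against 71.1 and 73.3 CPM in controls 1 and 2. The pattern was that of Hmgcs1, with a log2 fold change of -0.66 ± 0.249 (adjusted p = 0.15) and, without Yy1 cKO 3, -0.45 ± 0.061 (adjusted p = 2.7e-05). With any other library left out Idi1 did not pass (adjusted p = 0.15 to 0.36). Pmvk, phosphomevalonate kinase, differed less (-0.30 ± 0.104, adjusted p = 0.068). Fdps, farnesyl diphosphate synthase, was listed at only 43, 57 and 34 counts in Yy1 cKO 1, 2 and 3, against 61 and 57 counts in controls 1 and 2. Yy1 cKO 2 and control 2 thus had equal counts and stayed apart only after scaling, at log2 ratios to the control mean of -0.049 and -0.022. A gene annotated on the same strand, Gm43738, covers 26.7% of the Fdps exons, so its level is uncertain (-0.45 ± 0.259, adjusted p = 0.26).

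At the squalene and lanosterol steps Fdft1 passed the test and Sqle had the largest fold change of the enzymes. Sqle, squalene epoxidase, a control point of the pathway (chromosome 15, 59315077 to 59331192), had 58.99, 61.3 and 37.3 CPM in Yy1 cKO 1, 2 and 3, against 102 and 104 CPM in controls 1 and 2. Its mean of 51.0% of the control was the lowest of all members, and no values overlapped, but the spread left it at -0.97 ± 0.237 (adjusted p = 0.056). Without Yy1 cKO 3 the log2 fold change was -0.78 ± 0.057 (adjusted p = 3.7e-08), and 9 of the 16 alternatives called it, with an adjusted p of up to 0.18 (without control 2). Fdft1, squalene synthase (chromosome 14, 63145150 to 63179578), had 30.6, 28.5 and 22.5 CPM in Yy1 cKO 1, 2 and 3, against 43.6 and 40.04 CPM in controls 1 and 2. It fell by 0.62 ± 0.124 (adjusted p = 0.0072), lost without control 1 (adjusted p = 0.077). Its exons overlap those of Ctsb on the other strand over 18.3% of their length, and Ctsb itself had more counts in Yy1 cKO (5638, 5031 and 5110) than in control libraries (4037 and 4057). Lss, lanosterol synthase, overlapped between the groups (53.3, 43.7 and 44.1 CPM in the Yy1 cKO libraries and 52.4 and 56.9 CPM in the controls) and differed by -0.21 ± 0.095 in log2 (adjusted p = 0.14).

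**Figure D3:**
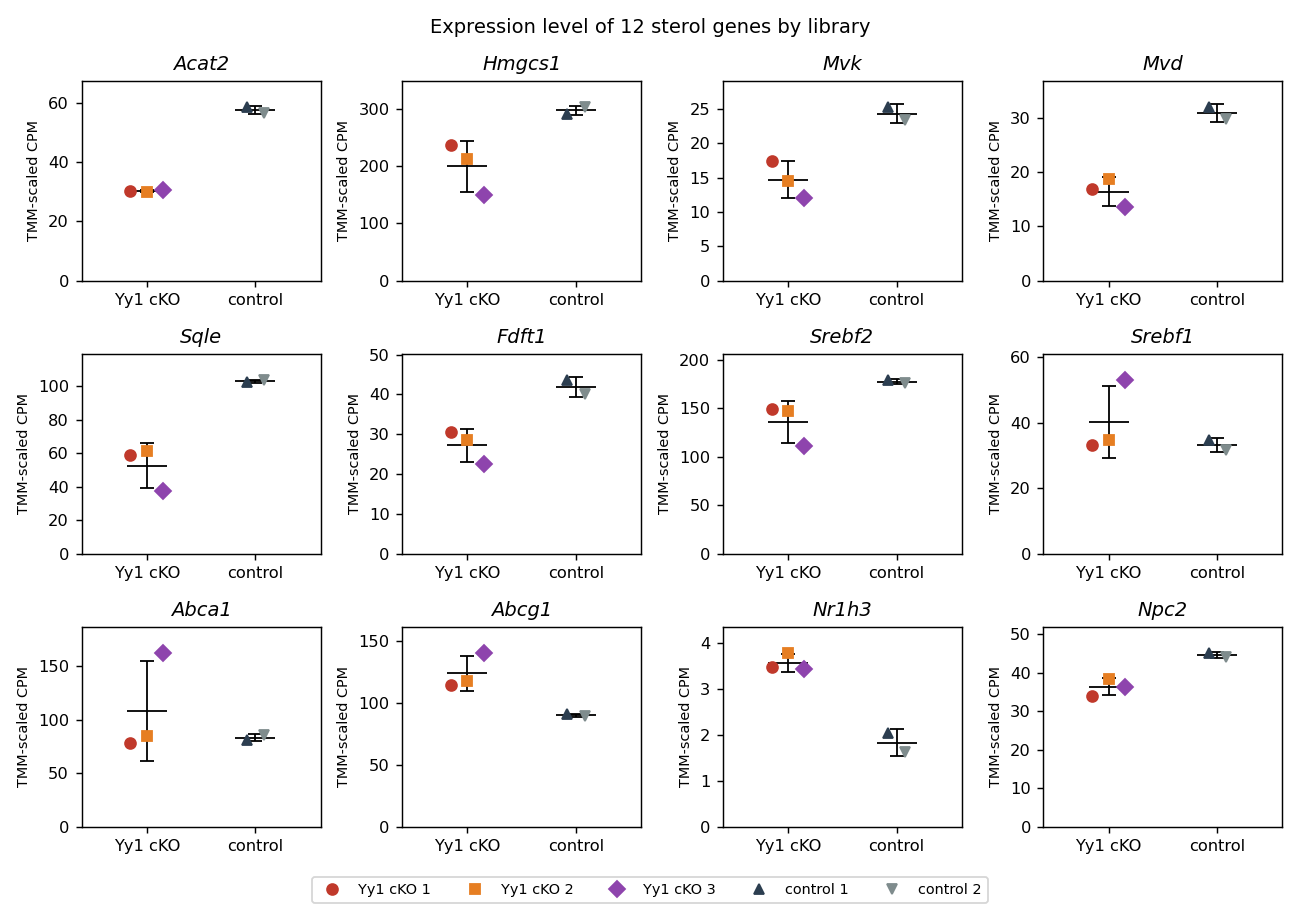
TMM-scaled CPM of 12 members in each library, Yy1 cKO left and control right, with symbols for single libraries and bars for the mean and SD (n = 3 and n = 2). Acat2 is nearly the same in all 3 Yy1 cKO libraries, whereas Hmgcs1, Sqle and Srebf2 are lowest and Srebf1 and Abca1 highest in Yy1 cKO 3.

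The late enzymes, which trim lanosterol to cholesterol, divided into 3 that fell, 3 that were lower without passing and 2 that hardly differed. Tm7sf2, a sterol reductase of the endoplasmic reticulum (chromosome 19, 6062821 to 6068373), had 11.1, 11.6 and 11.2 CPM in Yy1 cKO 1, 2 and 3, against 16.01 and 16.9 CPM in controls 1 and 2. Like Acat2 it varied little among the Yy1 cKO libraries, and it fell by 0.54 ± 0.102 (adjusted p = 0.0042), although not without control 2 (adjusted p = 0.054). Exons of Vps51, on the same strand, cover 12.1% of those of Tm7sf2, and how shared reads were counted is not given in the sources used here. X-linked Nsdhl, a dehydrogenase that removes methyl groups (chromosome X, 72918557 to 72958514), had 12.5, 8.32 and 7.30 CPM in Yy1 cKO 1, 2 and 3, against 15.7 and 15.6 CPM in controls 1 and 2. Yy1 cKO 1 stood well above the others of its group, the log2 fold change was -0.74 ± 0.211 (adjusted p = 0.043), and the call was lost without Yy1 cKO 2, control 1 or control 2 (adjusted p = 0.12, 0.17 and 0.18). Dhcr7, the reductase of the last step (chromosome 7, 143823145 to 143848410), had 36.4, 30.7 and 26.5 CPM in Yy1 cKO 1, 2 and 3, against 46.2 and 39.3 CPM in controls 1 and 2. The gap between the groups was narrow (-0.45 ± 0.135, adjusted p = 0.046), and the call was lost without Yy1 cKO 2, control 1 or control 2 (adjusted p = 0.12, 0.28 and 0.078) and with Xist as a covariate (adjusted p = 0.078).

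Cyp51, the demethylase of lanosterol, had 76.8, 71.1 and 47.3 CPM in Yy1 cKO 1, 2 and 3, against 105 and 90.6 CPM in controls 1 and 2. As with Hmgcs1 the lowest value was that of Yy1 cKO 3, and the change of -0.59 ± 0.239 (adjusted p = 0.17) became -0.40 ± 0.071 (adjusted p = 5.3e-04) without it. Msmo1, a methylsterol oxidase, followed the same order, with 39.1, 37.2 and 24.2 CPM in Yy1 cKO 1, 2 and 3, against 44.5 and 46.9 CPM in controls 1 and 2 and a log2 fold change of -0.45 ± 0.213 (adjusted p = 0.21), or -0.26 ± 0.07 without Yy1 cKO 3 (adjusted p = 0.0095). With any other library left out neither Cyp51 (adjusted p = 0.12 to 0.44) nor Msmo1 (adjusted p = 0.13 to 0.46) passed. Hsd17b7, a ketosteroid reductase of the pathway, differed by -0.46 ± 0.157 in log2 (adjusted p = 0.068). The isomerase Ebp, also X-linked, and the desaturase Sc5d overlapped between the groups. Ebp had 21.8, 24.1 and 19.6 CPM in the Yy1 cKO libraries and 23.5 and 22.7 CPM in the controls (-0.08 ± 0.108, adjusted p = 0.64), and Sc5d had 89.99, 83.8 and 70.5 CPM in the Yy1 cKO libraries and 87.2 and 89.7 CPM in the controls (-0.12 ± 0.096, adjusted p = 0.42). In CPM per kilobase of exon Sc5d stood at place 6 of the 18 enzymes by its level in controls and at place 2 in Yy1 cKO (16.7 in Yy1 cKO and 18.2 in control libraries), while Acat2 stood at place 2 in controls and 5 in Yy1 cKO (11.9 in Yy1 cKO and 22.7 in control libraries).

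In most enzymes Yy1 cKO 3 stood below the other Yy1 cKO libraries. It was the lowest of the 3 Yy1 cKO libraries in 15 of the 18 enzymes (83.3%), against 38.4% of all genes, and the enzymes stood at a median log2 ratio of -0.40 to the mean of Yy1 cKO 1 and 2, against -0.0035 over all genes. The 3 exceptions were Acat2, Lss and Tm7sf2, named after their values were seen. Summed over the 18 enzymes, the level was 77.97%, 72.2% and 54.7% of the control mean in Yy1 cKO 1, 2 and 3, while the controls stood at 100.3% and 99.7%. Without Yy1 cKO 3 the enzymes had a median log2 fold change of -0.40, and 12 fell and 0 rose, where 15.6% of all genes fell and 14.9% rose, 30.5% in all. Yy1 cKO 1 and 2, which remain in that fit, were the most alike pair of libraries. The chi-square per gene between their counts was 3.51, against 7.72 between the 2 controls. Within the libraries with Y-linked transcripts, 1 of each group, the enzyme median was -0.91, and within the other libraries, Yy1 cKO 1 and 2 and control 2, it was -0.42. Neither value has a test. With log2 CPM of Xist, which is expressed from the inactive X chromosome, as a covariate 11 enzymes fell, where 12.4% of all genes fell. Dhcr7 was no longer among them, while Hmgcs1, Idi1, Sqle, Msmo1 and Hsd17b7 were. Since 1 Yy1 cKO library held Y-linked transcripts, sex and library cannot be told apart within that group.

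**Figure D4:**
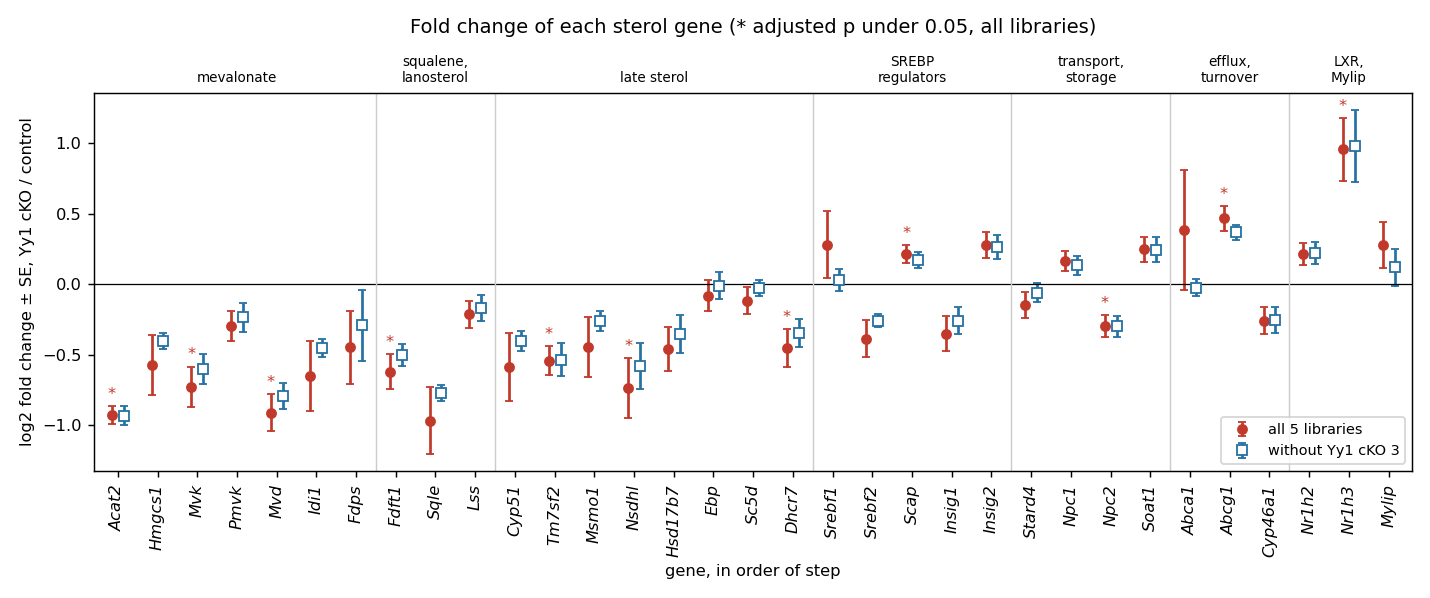
Log2 fold change of each member with its SE, Yy1 cKO over control, fitted with all 5 libraries (filled) and without Yy1 cKO 3 (open), with stars for an adjusted p under 0.05 in the fit of all libraries. Hmgcs1, Idi1, Sqle, Cyp51 and Msmo1 move toward 0 with shorter error bars when Yy1 cKO 3 is left out, and Srebf1 and Abca1 lie at 0.03 and -0.03.

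Of the 5 regulators of SREBP Scap rose and the other 4 did not pass. Srebf2, the factor of the cholesterol genes (chromosome 15, 82147181 to 82205379), had 149, 148 and 111 CPM in Yy1 cKO 1, 2 and 3, against 179 and 176 CPM in controls 1 and 2. All Yy1 cKO values lay below both controls and the lowest was again Yy1 cKO 3. Its log2 fold change was -0.39 ± 0.132 (adjusted p = 0.09), and -0.26 ± 0.046 without Yy1 cKO 3 (adjusted p = 3.7e-04). Srebf2 did not pass with any other library left out (adjusted p = 0.073 to 0.27). Srebf1, whose short isoform drives fatty acid genes (chromosome 11, 60199089 to 60222581), had 33.1, 34.7 and 53.1 CPM in Yy1 cKO 1, 2 and 3, against 34.6 and 31.7 CPM in controls 1 and 2. Yy1 cKO 3 was the highest library, and the groups overlapped (0.28 ± 0.236, adjusted p = 0.47, and 0.03 ± 0.077 without that library, adjusted p = 0.81). Scap, the escort (chromosome 9, 110333288 to 110384950), had 80.6, 80.97 and 87.8 CPM in Yy1 cKO 1, 2 and 3, against 71.8 and 71.5 CPM in controls 1 and 2. The groups did not overlap and Scap rose by 0.21 ± 0.063 (adjusted p = 0.035), a call that did not hold without Yy1 cKO 1 or 2 (adjusted p = 0.066 and 0.058), or control 1 or 2 (adjusted p = 0.19 and 0.19), with library-size scaling (adjusted p = 0.17) and in DESeq2 (adjusted p = 0.069).

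The INSIG paralogs lay on opposite sides of 0. Insig1, itself a target of SREBP (chromosome 5, 28071363 to 28078662), had 66.1, 53.4 and 48.6 CPM in Yy1 cKO 1, 2 and 3, against 69.2 and 74.2 CPM in controls 1 and 2, and Insig2 (chromosome 1, 121304353 to 121332589) had 37.2, 39.6 and 39.5 CPM in Yy1 cKO 1, 2 and 3, against 34.7 and 29.3 CPM in controls 1 and 2. Insig1 was lower and Insig2 higher in every Yy1 cKO library than in either control, by log2 fold changes of -0.35 ± 0.124 (adjusted p = 0.086) and 0.28 ± 0.09 (adjusted p = 0.053). Neither passed, and the difference between the paralogs was not tested. Without Yy1 cKO 3 Insig2 had an adjusted p of 0.027 and Insig1 of 0.069. Insig1 passed without Yy1 cKO 1 (-0.49, adjusted p = 0.0062). Insig2 stood at 0.40 without control 1 (adjusted p = 0.043) and at 0.16 without control 2 (adjusted p = 0.4).

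Of the genes that move and store cholesterol inside cells, Npc2 fell and 3 others did not pass. Npc2, the soluble lysosomal carrier (chromosome 12, 84754562 to 84773152), had 34.02, 38.4 and 36.4 CPM in Yy1 cKO 1, 2 and 3, against 45.1 and 44.1 CPM in controls 1 and 2. The groups did not overlap, and it fell by 0.30 ± 0.077 (adjusted p = 0.02), lost without Yy1 cKO 1, control 1 or control 2 (adjusted p = 0.088, 0.13 and 0.12). Its membrane partner Npc1 leaned the other way, with 76.2, 67.01 and 75.8 CPM in the Yy1 cKO libraries and 66.2 and 64.2 CPM in the controls (0.16 ± 0.072, adjusted p = 0.14). Soat1, which esterifies cholesterol for storage, had 26.9, 25.7 and 26.4 CPM in the Yy1 cKO libraries and 21.2 and 23.2 CPM in the controls (0.25 ± 0.091, adjusted p = 0.08). Stard4, a sterol carrier under SREBP control, had 47.1, 44.6 and 37.7 CPM in the Yy1 cKO libraries and 48.2 and 47.5 CPM in the controls (-0.15 ± 0.093, adjusted p = 0.29, and -0.06 ± 0.067 without Yy1 cKO 3, adjusted p = 0.53).

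Among the LXR receptors and the genes of efflux, Nr1h3 and Abcg1 rose. Nr1h3, which encodes LXR alpha (chromosome 2, 91184061 to 91202834), was a low transcript with 69, 69 and 64 counts in Yy1 cKO 1, 2 and 3, against 38 and 29 counts in controls 1 and 2. Every Yy1 cKO library exceeded both controls, and the mean was 3.56 ± 0.187 CPM in Yy1 cKO (SD, n = 3) and 1.83 ± 0.300 CPM in control libraries (SD, n = 2). The log2 fold change was 0.96 ± 0.223 (adjusted p = 0.013), the largest rise of the members, lost without control 2 (adjusted p = 0.11). Nr1h2, which encodes LXR beta (chromosome 7, 44549616 to 44553951), was expressed at a higher level per kilobase (9.33 in Yy1 cKO and 8.04 in control libraries, CPM per kb, where Nr1h3 had 1.42 in Yy1 cKO and 0.727 in control libraries). It had 31.3, 31.7 and 30.9 CPM in Yy1 cKO 1, 2 and 3, against 26.7 and 27.2 CPM in controls 1 and 2, without overlap, and a log2 fold change of 0.21 ± 0.079 (adjusted p = 0.082).

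Abcg1, an exporter of sterols to lipoproteins (chromosome 17, 31057675 to 31117988), had 114, 117 and 139.9 CPM in Yy1 cKO 1, 2 and 3, against 90.4 and 88.7 CPM in controls 1 and 2. All Yy1 cKO libraries lay above both controls, with the highest value in Yy1 cKO 3, and Abcg1 rose by 0.47 ± 0.089 (adjusted p = 0.0058). That call was lost without control 1 or control 2 (adjusted p = 0.056 and 0.065) and kept without Yy1 cKO 3 (0.37 ± 0.053, adjusted p = 5.2e-05). Abca1, which loads cholesterol onto apolipoproteins (chromosome 4, 53030787 to 53159895), had 78.5, 84.6 and 162 CPM in Yy1 cKO 1, 2 and 3, against 80.8 and 85.2 CPM in controls 1 and 2. Yy1 cKO 3 stood apart from the rest, at 199% of the mean of Yy1 cKO 1 and 2, so that the change of 0.39 ± 0.427 (adjusted p = 0.61) became -0.03 ± 0.06 without it (adjusted p = 0.79). Mylip, a ubiquitin ligase that removes lipoprotein receptors, was also highest there, with 11.98, 14.7 and 17.99 CPM in Yy1 cKO 1, 2 and 3, against 12.5 and 12.05 CPM in controls 1 and 2 (0.28 ± 0.162, adjusted p = 0.26, and 0.12 ± 0.131 without Yy1 cKO 3, adjusted p = 0.55). Cyp46a1, the neuronal hydroxylase that turns cholesterol into an exportable oxysterol, had 24.9, 23.4 and 24.1 CPM in Yy1 cKO 1, 2 and 3, against 31.1 and 26.8 CPM in controls 1 and 2. It lay below the controls in all Yy1 cKO libraries without passing (-0.26 ± 0.095, adjusted p = 0.079), and passed without Yy1 cKO 3 (adjusted p = 0.045). Leaving out any other library gave no call for Cyp46a1 (adjusted p = 0.084 to 0.46).

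Outside the members, genes of neighbouring pathways had calls in both directions. Of 62 tested 11 rose and 5 fell, with a median log2 fold change of 0.08. That is 25.8% called, close to the 23.4% of all genes. Without control 1 these counts were 5 and 1, without control 2 they were 4 and 2, and without Yy1 cKO 3 the second was 8. The share of all genes called was 10.3% without control 1, 10.3% without control 2 and 30.5% without Yy1 cKO 3. The isoprenoid branch, which leads to ubiquinone, dolichol and prenylated proteins, had 0 calls among 11 genes and a median of 0.02 in edgeR, with 2 genes higher at an unadjusted p under 0.05 and 0 calls in DESeq2, limma-voom or limma-trend. Coq2 of this list passed without Yy1 cKO 3 (0.36 ± 0.097, adjusted p = 0.01). Of 11 genes of SREBP cleavage and sterol-regulated degradation 1 rose and 1 fell, and the one that fell was the protease gene Mbtps2 (-0.31 ± 0.088, adjusted p = 0.031). Its call was lost in DESeq2 and without Yy1 cKO 1, control 1 or control 2 (adjusted p = 0.11, 0.091 and 0.22). Of 14 genes of fatty acid synthesis 3 rose and 1 fell, with a median of -0.009. Acly, Fasn and Elovl6 also fell without Yy1 cKO 3 (adjusted p = 0.037, 0.027 and 0.0011), and with control 1 or control 2 left out 1 gene rose and 1 fell. The desaturase gene Scd1 rose (209, 205 and 209 CPM in the Yy1 cKO libraries and 155 and 148 CPM in the controls, 0.46 ± 0.053), as did Acss2 (0.30 ± 0.063) and Lpin1 (0.36 ± 0.089), while the desaturase Fads2 fell (82.4, 75.7 and 85.5 CPM in the Yy1 cKO libraries and 126 and 129.8 CPM in the controls, -0.66 ± 0.065, adjusted p = 1.1e-04). Yy1 cKO 3 was the lowest Yy1 cKO library in 6 of these 14 genes, against 15 of the 18 sterol enzymes.

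Of 17 lipoprotein receptors and other sterol transporters 6 rose and 3 fell, which is 52.9% called, against 23.4% of all genes. Those with the smallest p rose: Abca2 (0.47 ± 0.058, adjusted p = 4.2e-04), Gramd1b, which carries sterol from the plasma membrane (0.41 ± 0.056), the receptor Lrp1 (0.41 ± 0.073) and the ester hydrolase Nceh1 (0.40 ± 0.077). Abca2 and Gramd1b were called in all 16 alternatives. The call of Lrp1 was lost without control 2 (adjusted p = 0.061) and that of Nceh1 without control 1 (adjusted p = 0.077). The 3 that fell, named after their values were seen, were the reelin and lipoprotein receptor Lrp8 (182, 176 and 129 CPM in the Yy1 cKO libraries and 310.4 and 279.9 CPM in the controls, -0.86 ± 0.158, adjusted p = 0.017), the receptor chaperone Lrpap1 and Gramd1a. Lrp8 was lost without control 1 or control 2 (adjusted p = 0.082 and 0.054). Over the list 3 rose and 0 fell without control 1, and 3 rose and 1 fell without control 2. In each of these fits 10.3% of all genes were called. Of 9 oxysterol genes and LXR partners tested 1 rose, the coactivator Ncoa1 (0.23 ± 0.059, adjusted p = 0.018), a call lost without Yy1 cKO 1 or control 2 (adjusted p = 0.059 and 0.21) and with library-size scaling. Cyp27a1, which also makes an oxysterol, had 8.20, 8.27 and 5.64 CPM in the Yy1 cKO libraries and 5.96 and 4.52 CPM in the controls and was not called (adjusted p = 0.13), but passed without Yy1 cKO 3 (0.65 ± 0.171, adjusted p = 0.0082).

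Cell type marker lists differed between the groups in both directions, and their part in the enzyme result was not tested. Of the 67 markers tested 52.2% were called, against 23.4% of all genes, where 10.7% rose and 12.6% fell. Markers of granule cell precursors and division fell in 8 of 8 cases, and their summed level was 8.78%, 9.29% and 8.88% of the control mean in Yy1 cKO 1, 2 and 3, with Atoh1 at 0, 1 and 0 counts there against 16 and 19 in the controls. Oligodendrocyte precursor markers fell in 6 of 8 cases, with sums of 80.6%, 82.6% and 83.5%, led by Gpr17 (-0.96 ± 0.093) and C1ql1 (-1.24 ± 0.207). Without control 2 these were the 2 that fell, without Yy1 cKO 2 or control 1 the count was 3, without Yy1 cKO 1 it was 4, and DESeq2 called 4. In these fits 5.74% to 9.99% of all genes fell. Markers of myelinating oligodendrocytes, a cell type rich in sterol synthesis, rose in 2 of 10 cases and fell in 1, with sums of 104%, 95.5% and 105%. Those with the smallest p were Mobp (0.32 ± 0.084) and Aspa (0.47 ± 0.124), both lost without Yy1 cKO 1 or control 1, while without Yy1 cKO 3 the count that fell was 3. Of 10 markers of astrocytes and Bergmann glia 4 rose, led by S100b (0.70 ± 0.056) and Slc1a3 (0.38 ± 0.071), and 1 fell, Aqp4 (-0.53), with sums of 125%, 128% and 133%. Log2 fold changes were negative in 5 of the 10 and positive in 5. Without Yy1 cKO 3 Aldh1l1 passed as lower (-0.52 ± 0.067, adjusted p = 1.7e-05) and Aqp4 did not pass (-0.59 ± 0.167, adjusted p = 0.11). Without control 2 only 1 of the 10 rose. Within the Yy1 cKO group the sums of oligodendrocyte precursor, myelinating, astrocyte and microglia markers were highest in Yy1 cKO 3, while those of granule neuron, Purkinje cell and endothelial and mural markers were lowest there, as was the sum of the enzymes.

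Of 8 granule neuron markers 6 rose, led by Gabrd (0.60 ± 0.061) and Grin2c (0.71 ± 0.079), and the list summed to 134%, 137% and 125% of the control mean. Of 8 Purkinje cell markers 1 rose, Itpr1 (0.75), and the list summed to 134%, 138% and 118%. Without Yy1 cKO 3 Car8 (0.30 ± 0.064) and Rgs8 (0.35 ± 0.058) also passed. In that fit Slc1a6 (-0.61 ± 0.168, adjusted p = 0.10), Pcp2 (-0.18) and Calb1 (-0.09) were negative. Ppp1r17 (0.58) and Gng13 (0.28) were positive there, and like those 3 they did not pass. Of 6 endothelial and mural markers 2 rose and 3 fell (83.4%, 84.4% and 76.2%), led by Cldn5 (-1.01 ± 0.094) and Slco1a4 (0.96 ± 0.096), and without Yy1 cKO 1, control 1 or control 2 the counts were 1 and 1. Microglia markers had 0 calls among 5 tested in edgeR, 0 at an unadjusted p under 0.05 and 0 in DESeq2, limma-voom and limma-trend, with sums of 89.2%, 83.9% and 119%. Choroid plexus markers were scarce, with summed levels of 10.7 to 11.8 CPM in Yy1 cKO and 16.98 to 18.7 CPM in control libraries, most of it Otx2, which fell (-0.84 ± 0.105). Kcnj13 of this list leaned the other way (1.09) and Kl did not (-0.45), and neither was called. Over all marker lists 15 of the 67 tested rose and 20 fell, where 10.7% of all genes rose and 12.6% fell. Without control 2 the counts were 9 and 13, where 10.3% of all genes were called. Forebrain markers summed to 1.24 to 1.96 CPM in Yy1 cKO and 2.04 to 2.45 CPM in control libraries.

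**Figure D5:**
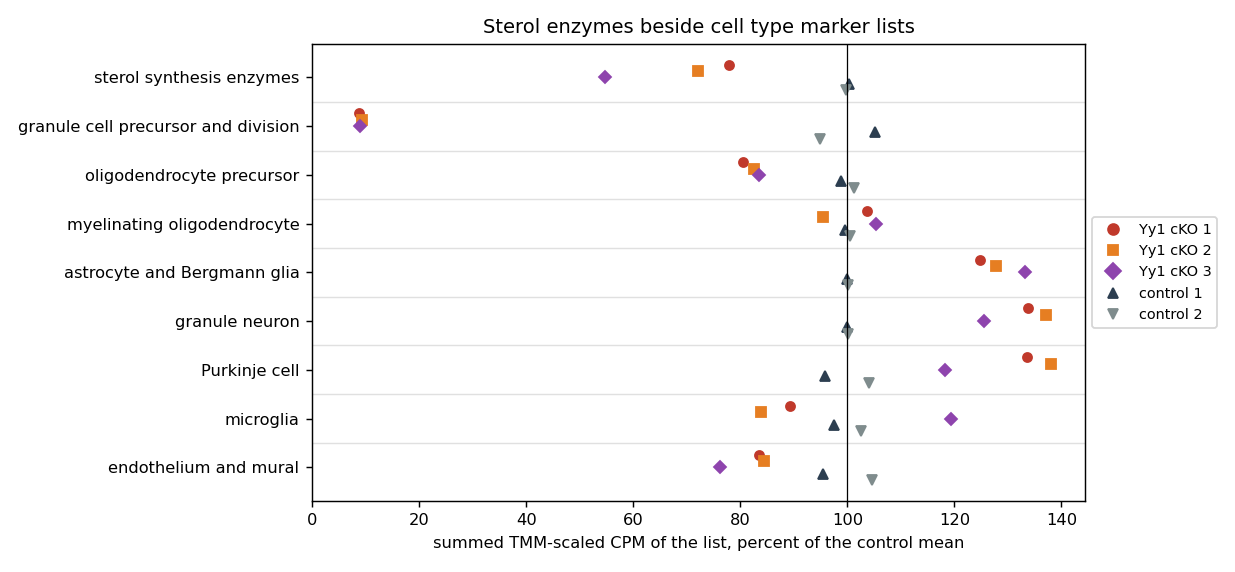
Summed TMM-scaled CPM of the 18 sterol synthesis enzymes and of the cell type marker lists in each library, as a percent of the mean of the 2 controls (vertical line at 100). The enzymes spread from 54.7% to 78.0% in the Yy1 cKO libraries with the lowest value in Yy1 cKO 3, and the granule cell precursor list lies below 10% in all 3.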

How the data were processed

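Whole-cerebellum RNA-seq of 3 Yy1 cKO and 2 control libraries was analysed from the authors' deposited table of raw counts per gene. FastQC 0.11.8, Trimmomatic 0.39, STAR 2.7.1a, featureCounts, DESeq2 1.26.0 and GRCm38 are named in the submitters' processing notes, and the strand setting of counting is not given in the sources used here. The authors' other table is a deposited normalized signal that equals each library's counts divided by 1 constant (0.969 to 1.07), and served only the limma-trend alternative. The counts were tested with edgeR 4.0.16 (quasi-likelihood, TMM, filterByExpr, robust dispersion, Benjamini-Hochberg adjustment, threshold 0.05), with alternatives in limma 3.58.1 and DESeq2 1.42.0. Values in CPM are TMM-scaled. SE is that of the log2 fold change. The fit was also run on simulated counts with 200 genes changed by known folds. No simulated library was made to stand apart as Yy1 cKO 3 does, so that run does not cover such a library. Names and positions came from GENCODE M21 and promoters from RefSeq. Depth was 17424860 to 20305705 counts. All 33 members are reported. Named beside them were up to 4 called genes with the smallest p per pathway list and up to 2 per cell type list. Further genes of these lists were named after their values were seen. Values of some listed genes are not reported here. Members and lists were chosen with earlier results of these data known.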

Additional observations from a re-analysis of the deposited data

How the results depend on the processing

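All 18 enzymes kept a negative log2 fold change under each of the 16 alternatives, and their median ran from -0.68 to -0.40 when 1 library was left out. Within the libraries with Y-linked transcripts, an alternative chosen after seeing the data, it was -0.91. The number of calls moved more. Among the 33 members 8 fell, against 14 with library size alone, 13 with DESeq2, limma-voom or no robust dispersion and 14 with Xist as a covariate, and 3 to 15 with 1 library left out. The 3 that rose became 0 to 5 with 1 library left out. Among the enzymes 7 fell, against 11 with DESeq2, limma-voom, no robust dispersion or Xist, and 3 to 12 with 1 library left out. Among the other 15 members 1 fell, against 4 with library size alone, 3 without the filter or with Xist, 2 with DESeq2, limma-voom or no robust dispersion and 0 to 3 with 1 library left out, while those that rose were 0 to 5. Among neighbouring pathway genes 5 fell, against 9 with library size alone, 8 without the filter and 1 to 8 with 1 library left out, and 4 to 14 rose. Cell type markers lower were 13 to 22 and higher 9 to 18. Over all genes 1267 to 3127 fell and 887 to 2990 rose with 1 library left out, against 3369 and 1432 with library size alone. As a share of all genes tested, 12.6% fell in the main fit and 5.98% to 15.6% with 1 library left out. That share was 5.74% with DESeq2, 12.4% with limma-voom or Xist and 12.3% with no robust dispersion. With library size alone it was 16.5%, and without the filter 8.95%. The cause of these moves was not tested.

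The replicate numbers did not pair the samples (correlation of deviations 0.037 and 0.013 for the pairs with the same number). With the replicate block, which gives Yy1 cKO 3 a block of its own and so takes it out of the contrast, 18 members fell and 6 rose, 14 enzymes fell, 4 of the other members fell and 6 rose, 8 pathway genes fell, and of all genes 3575 (17.5%) fell and 3486 rose. Of 528 pairs of member and alternative 440 kept their side of the threshold, 66 gained a call, 22 lost one and 0 reversed a call. Abca1, never called, changed sign without Yy1 cKO 3 and with the block. The low number of controls limits the precision of every value.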
